A study of Homo sapiens with 24 samples.

Results

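HepG2 cells, a human line derived from a liver tumour with many hepatocyte traits, were transfected with siRNA against IGF2BP3 (siIGF2BP3) or with the AllStars control siRNA (siControl), and mRNA was sequenced at 0 h, before actinomycin D was given. The experiment described here is this steady-state comparison. Its members were chosen by label and are 2 siIGF2BP3 and 2 siControl libraries, 4 of the 24 libraries of the series. The same cells with siRNA against IGF2BP1 (siIGF2BP1) or IGF2BP2 (siIGF2BP2), 2 libraries each at 0 h, served to find which changes were absent from the other knockdowns. Further plates of all 4 conditions were harvested 3 h and 6 h after actinomycin D, an inhibitor of transcription, was added. Although the labels carry the drug tag on every library, the 0 h cells had received none. All groups share the line and the lipid transfection, the siRNAs were bought pre-designed, and the knockdowns are transient and partial. Legends of the study's lifetime figures call the 2 replicates independent, without saying at which step they were separated. Nothing in the labels says that the 2 libraries of a group came from separate transfections. The p-values therefore measure the spread between these libraries, which may be technical.

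IGF2BP1, IGF2BP2 and IGF2BP3 are a family of cytoplasmic RNA-binding proteins with RNA recognition and KH domains. They are abundant in the embryo, and IGF2BP1 and IGF2BP3 are largely silent in adult tissue and return in many tumours, liver cancer among them. The family is known as readers of methylated mRNA, first of N6-methyladenosine and then of internal N7-methylguanosine, and for holding client transcripts in granules where their decay and translation are altered.

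The targeted transcript was measured first. IGF2BP3 (ENSG00000136231.13, chr7:23310209-23470491, minus strand of hg38) stood at 102 and 99.0 CPM (reads of a gene relative to the library's total, scaled between libraries by TMM) in the siControl libraries and at 36.1 and 35.2 CPM in the siIGF2BP3 libraries. That is a log2 change of -1.49 ± 0.0446 (SE from the fit of all 24 libraries, n = 2 libraries a group, edgeR quasi-likelihood test, adjusted p = 7.83e-25), which left 35.5% of the control level. The siIGF2BP1 libraries held 113 and 121 CPM and the siIGF2BP2 libraries 97.8 and 99.8 CPM, so the 2 siIGF2BP3 libraries lay below the other 6 and matched their label. In the later plates the difference was -1.85 at 3 h and -2.02 at 6 h. Part of the gene overlaps MALSU1 on the opposite strand, and how the authors' counting used strand is not given in the sources used here. IGF2BP2, the paralogue at 169 and 176 CPM in siControl, was at 182 and 178 CPM (log2 0.06, adjusted p = 0.365). IGF2BP1 rose slightly, from 621 and 632 to 686 and 681 CPM (log2 0.125 ± 0.0299, adjusted p = 0.00418), a call lost with spike-in scaling and without siControl replicate 1 or siIGF2BP3 replicate 1.

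The 4 libraries held 39441282 to 74252042 reads in genes, and replicates correlated across genes with r of 0.9972 and above. All 10 hepatocyte markers passed the filter, and their summed level ran from 71477 to 73156 CPM in siControl and from 69405 to 70077 CPM in siIGF2BP3. Of 10 markers each for other cells, 1 fibroblast, 2 glial, 3 leukocyte and 2 endothelial genes passed. DCN, LUM, THY1, FAP, POSTN, OLIG1, OLIG2, KDR, TEK and ERG had no read in any of the 4 libraries. The summed level was lower in siIGF2BP3, without overlap, for fibroblast markers (9.23 to 10.2 against 7.1 to 8.44 CPM), glial markers (96.6 to 101 against 72.1 to 76.8 CPM, mostly NES), leukocyte markers (1203 to 1228 against 1069 to 1093 CPM, mostly LYZ) and endothelial markers (5.17 to 6.07 against 4.01 to 4.03 CPM, ESAM among them). NES, an intermediate filament gene, and ESAM, an adhesion receptor, were each called lower, at log2 -0.43 and -0.87, and the call of ESAM was lost with ERCC scaling and without siIGF2BP3 replicate 1. Of the 3 leukocyte genes tested, 1 was called higher and 1 lower. The part of these markers in the results was not tested.

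Many small changes accompanied the loss of IGF2BP3. Of 13136 genes tested, 647 (4.93%) were called higher and 587 (4.47%) lower in siIGF2BP3 at an adjusted p under 0.05. The median change of the called genes was 0.22 upward and -0.23 downward on the log2 scale, 116 of them changed by at least 0.5 and 16 by at least 1. When the libraries were scaled on the ERCC spike-ins, synthetic RNAs added per µg of total RNA, in place of TMM, 388 were higher and 83 lower. The ERCC share was 0.1313% and 0.1501% of gene reads in the siControl libraries and 0.1352% and 0.129% in the siIGF2BP3 libraries, so the siControl replicates differed more from each other in this share than the siIGF2BP3 replicates did. This scaling moved the median log2 change of all genes from 0.0035 to 0.0861, and 82.4% of its calls were higher against 52.4% of those with TMM. It is given below beside the main gene groups. Leaving out siControl replicate 1, siControl replicate 2, siIGF2BP3 replicate 1 or siIGF2BP3 replicate 2 left 586, 765, 742 and 687 calls.

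A test of the difference itself set apart the genes that changed in siIGF2BP3 and not alike in the other knockdowns. A gene was taken as particular to siIGF2BP3 when it was called in the same direction against siControl, against siIGF2BP1 and against siIGF2BP2. There were 154 such genes on the lower side (1.17% of those tested) and 38 on the higher side (0.289%). All 3 contrasts share the siIGF2BP3 libraries, so they do not check one another. In all 154 lower and all 38 higher genes both siIGF2BP3 libraries lay beyond the other 6 at 0 h. Of all genes tested, 8.12% lay below and 6.37% above in this way. Such separation goes with the rule and is no separate support for any gene that met it. For the 154 lower genes the median log2 change from siControl was -0.28 in siIGF2BP3, 0.02 in siIGF2BP1 and 0.02 in siIGF2BP2. Of them, 106 were called in neither other knockdown, 34 were called higher in at least 1 of the others, and 17 were called lower in at least 1 of them to a smaller degree. ANKRD1, for one, counts in both of the last sets. The 38 higher genes had medians of 0.225, -0.0008 and 0.0226, and 25 of them were called in neither other knockdown. IGF2BP1 counts among the 38 partly because it is the target in siIGF2BP1: the difference there was 2.37, against 0.125 from siControl and 0.102 from siIGF2BP2. Of the 587 genes lower than in siControl, 287 were also called lower than in siIGF2BP1 and 241 lower than in siIGF2BP2. Of the 647 higher genes, 158 and 118 were called higher. Of all genes tested, 1091 (8.31%) were lower and 788 (6%) higher in siIGF2BP3 than in siIGF2BP1, and 645 (4.91%) lower and 562 (4.28%) higher than in siIGF2BP2. Against siControl, siIGF2BP1 had 1239 genes higher (9.43%) and 854 lower (6.5%), and siIGF2BP2 had 874 higher (6.65%) and 719 lower (5.47%). Without 1 library at a time 83 to 121 and 11 to 23 genes met the rule. Without siIGF2BP3 replicate 2 they were 83 and 11, without siIGF2BP3 replicate 1 they were 91 and 15, and without siControl replicate 1 they were 105 and 22. Leaving out siControl replicate 2 left 113 and 23, siIGF2BP1 replicate 1 left 121 and 16, siIGF2BP1 replicate 2 left 120 and 23, siIGF2BP2 replicate 1 left 113 and 15 and siIGF2BP2 replicate 2 left 112 and 19. Spike-in scaling left 19 and 4 genes that met the rule. With it AKAP12, MSMO1, MT1E, MT1G, TNFRSF12A and HOXD1 were still called against siControl, the only contrast followed for single genes. Wherever a named gene is said to keep or lose its call in another setting, this contrast alone is meant.

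**Figure D1:**
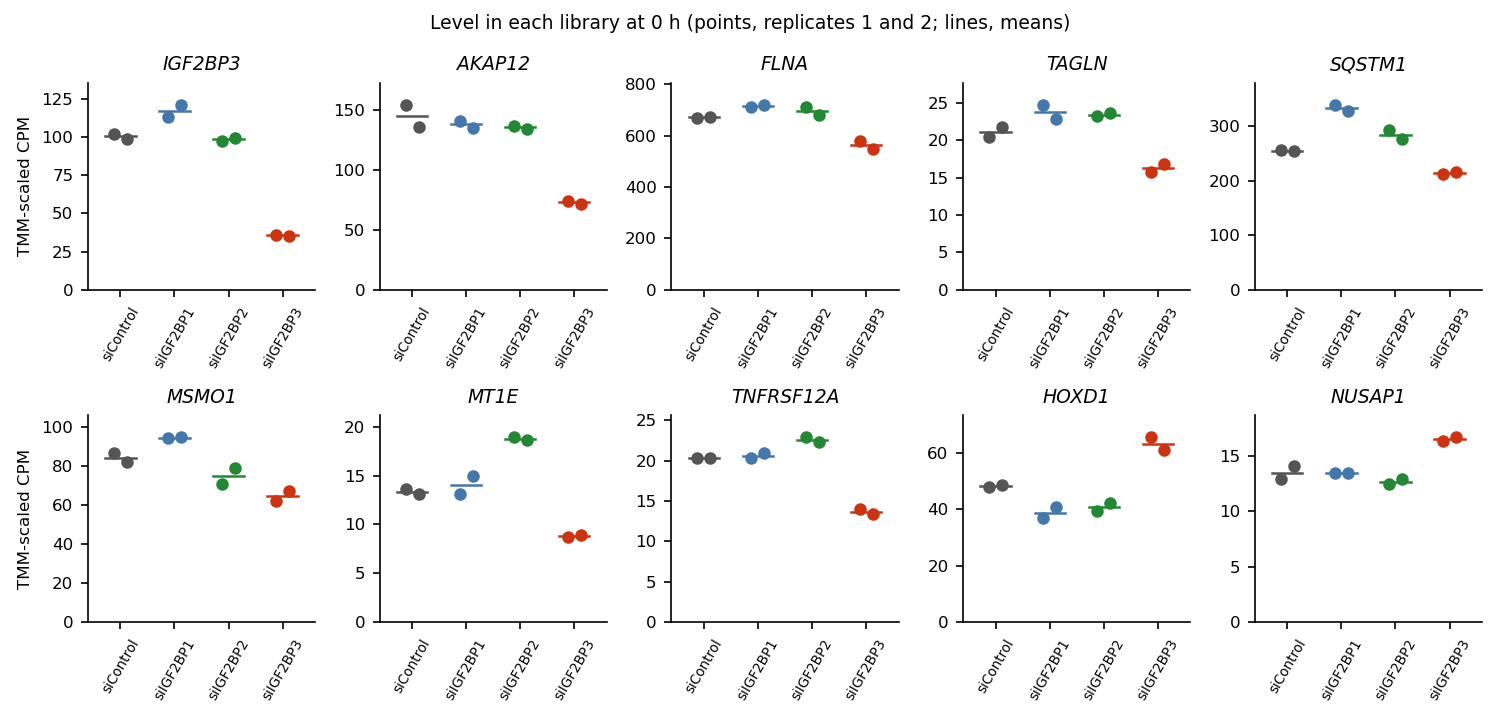
TMM-scaled CPM on a linear axis from 0 for 10 genes in the 8 libraries at 0 h, with a point for each replicate and a line at the mean of each group. In the first 8 panels both siIGF2BP3 points lie below the other 6 (IGF2BP3 36.1 and 35.2 against 97.8 or more CPM), and for HOXD1 and NUSAP1 they lie above. All 10 genes are particular to siIGF2BP3, and every particular gene shows such a separation.

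AKAP12 was the transcript lowered most after IGF2BP3 itself among genes of at least 5 CPM. It encodes a scaffold that anchors protein kinases A and C at the membrane and links them to actin remodelling (chr6:151239967-151358559, plus strand). Its level was 154 and 136 CPM in siControl and 74.3 and 71.4 CPM in siIGF2BP3, a log2 change of -0.99 ± 0.049 (adjusted p = 9.21e-18). In siIGF2BP1 it was 141 and 135 CPM and in siIGF2BP2 137 and 134 CPM, so the fall was found with the IGF2BP3 siRNA and not with the other 2, and the smallest of the 3 differences was -0.90. It stayed low in the later plates, at -0.90 and -0.77.

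AKAP12 belongs to a list of 28 actin cytoskeleton and adhesion scaffold genes, all of them measured. Of these, 14 fell and none rose (0 at an unadjusted p under 0.05 in edgeR and 0 with DESeq2), and the list median was -0.12 against 0.0035 for all genes tested. The medians were 0.06 in siIGF2BP1 and 0.02 in siIGF2BP2, and 19 members were lower in siIGF2BP3 than in siIGF2BP1 and 15 lower than in siIGF2BP2, contrasts in which 8.31% and 4.91% of all genes were lower. The 9 members particular to siIGF2BP3 included AKAP12, the actin cross-linker FLNA, the focal adhesion proteins VCL and ZYX, the LIM domain scaffold PDLIM5, cytoplasmic gamma actin ACTG1, tropomyosin TPM4 and the actin-binding protein TAGLN. TAGLN, known as a marker of contractile cells, was 20.4 and 21.8 CPM in siControl, 24.7 and 22.8 in siIGF2BP1, 23.3 and 23.6 in siIGF2BP2 and 15.7 and 16.8 in siIGF2BP3 (log2 -0.39 ± 0.0684, adjusted p = 0.000114). FLNA (chrX:154348524-154374634, minus strand) was 670 and 674 CPM in siControl and 579 and 549 CPM in siIGF2BP3 (log2 -0.25 ± 0.0337, adjusted p = 1.19e-06), with 680 CPM or more in each of the other 4. In both genes the siIGF2BP3 libraries lay below the other 6 at 0 h, as in every particular lower gene. TAGLN overlaps PCSK7 on the opposite strand. ACTB, the other cytoplasmic actin, was not called and stood at 3304 and 3234 CPM against 3175 and 3183 (log2 -0.04, adjusted p = 0.288), and in siIGF2BP1 it was higher by 0.19. The list median relative to that of all genes was -0.12 with either scaling. A scaling shifts all genes of a library alike, so this value could hardly change and is no check. Under ERCC scaling AKAP12 alone of the 28 was still called. Without 1 library at a time 9 to 14 were, the 9 without siIGF2BP3 replicate 2.

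Adhesion receptors and the nuclear lamina were found among the 154 as well. Of these, ITGAV, ITGB5, ILK and LMNA belong to no list used here and were picked after their values were seen. The integrin subunits ITGAV (log2 -0.31), ITGB5 (-0.15) and ITGA6 (-0.11), the integrin-linked kinase ILK (-0.20) and the lamin LMNA (-0.25) were each lower than in the 3 other groups. ITGA6, a laminin receptor subunit and a described IGF2BP client, rose in siIGF2BP1 (0.19). Of 36 extracellular matrix genes 10 fell and 2 rose, with LAMB1 and THBS1 the 2 particular ones. THBS1, a secreted adhesion modulator, was 166 and 178 CPM in siControl, 145 and 154 CPM in siIGF2BP3 (log2 -0.20) and 234 and 236 CPM in siIGF2BP2 (0.45), so the 2 knockdowns moved it in opposite directions. ERCC scaling left 1 of the 36 higher and 0 lower, and 5 were lower without siControl replicate 1 or siIGF2BP3 replicate 2.

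**Figure D2:**
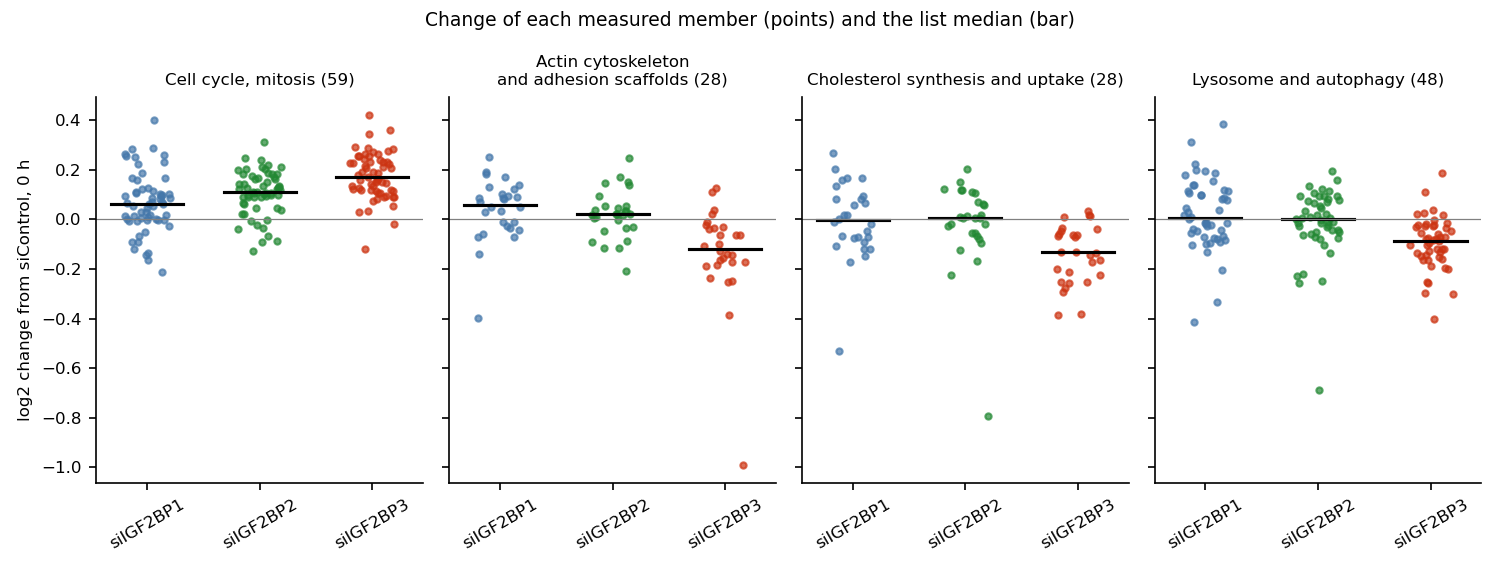
The log2 change from siControl at 0 h (y axis) of every measured member of 4 gene lists in siIGF2BP1, siIGF2BP2 and siIGF2BP3, with a point for each gene and a bar at the list median. The 3 comparisons share the siControl libraries. In siIGF2BP3 the medians are 0.17, -0.12, -0.13 and -0.09 from left to right, while for the last 3 lists the siIGF2BP1 and siIGF2BP2 medians lie between -0.0035 and 0.0587.

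Promoter windows were searched for the CArG box, the element bound by serum response factor, which is known for driving actin-related genes. A RefSeq promoter window on GRCh38.p14, running from 250 bases before the transcription start to 50 after it, was found for 9793 tested genes (74.6%). Matches were counted on both strands, and each motif was searched by itself, so that matches of different motifs may overlap. A CArG box was present in 0.919% of all windows, in 3.06% (14) of those of the genes called lower and in 1.13% (6) of those called higher. Of the 120 particular lower genes with a window, 8 (6.67%) held one. The genes called lower also had more AP-1 letters, TGANTCA (6.78% against 4% of all), kappaB sites (8.97% against 6.55%) and sterol elements (1.31% against 1.07%). The metal, E2F, CCAAT and cell cycle motifs described below were not more frequent there. In the actin list 4 of 24 windows held a CArG box, those of AKAP12, FLNA, ACTG1 and CNN2, and all 4 genes were lower. These sets share genes, so their shares are not separate results. None of the 12 windows of members that were not called held one. CNN2, a calponin, was 177 and 180 CPM in siControl and 159 and 155 CPM in siIGF2BP3 (log2 -0.19, adjusted p = 0.000571), but it did not differ enough from siIGF2BP2 to count as particular. A match of letters is a description and says nothing about binding in these cells. The last 200 bases before each start are shown 5′ to 3′ for these 4 genes, because they are the 4 members of the list whose window held the motif, with the CArG box in capitals.
AKAP12 (chr6:151239767-151239966, plus strand): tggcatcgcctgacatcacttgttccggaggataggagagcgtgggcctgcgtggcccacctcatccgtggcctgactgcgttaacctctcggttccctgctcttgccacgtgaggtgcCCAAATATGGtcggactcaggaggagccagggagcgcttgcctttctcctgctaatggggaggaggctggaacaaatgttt
FLNA (chrX:154374635-154374834, minus strand): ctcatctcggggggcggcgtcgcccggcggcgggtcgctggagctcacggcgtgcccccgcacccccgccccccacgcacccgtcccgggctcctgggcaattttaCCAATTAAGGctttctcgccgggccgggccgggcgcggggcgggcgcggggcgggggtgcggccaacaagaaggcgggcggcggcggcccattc
ACTG1 (chr17:81512800-81512999, minus strand): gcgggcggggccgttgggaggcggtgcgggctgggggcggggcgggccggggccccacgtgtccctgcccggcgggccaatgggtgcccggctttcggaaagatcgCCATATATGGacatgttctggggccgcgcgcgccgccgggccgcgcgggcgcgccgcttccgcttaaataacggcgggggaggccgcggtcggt
CNN2 (chr19:1026408-1026607, plus strand): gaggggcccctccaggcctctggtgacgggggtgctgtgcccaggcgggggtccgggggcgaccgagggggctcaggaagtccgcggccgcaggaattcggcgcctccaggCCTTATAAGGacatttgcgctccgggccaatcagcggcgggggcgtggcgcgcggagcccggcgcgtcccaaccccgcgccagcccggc

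In each sequence the box begins between 81 and 94 bases upstream of the start.

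Cholesterol genes formed the second group lowered with the IGF2BP3 siRNA. Of 28 measured genes of cholesterol synthesis and uptake 13 fell and none rose (0 at an unadjusted p under 0.05 in edgeR and 0 with DESeq2), with a list median of -0.133 in siIGF2BP3, -0.0035 in siIGF2BP1 and 0.006 in siIGF2BP2. The sterol oxidase MSMO1 was 86.5 and 81.8 CPM in siControl and 62.0 and 67.3 CPM in siIGF2BP3, so the groups did not overlap (log2 -0.38 ± 0.0556, adjusted p = 5.61e-06). In siIGF2BP1 it rose by 0.17 and in siIGF2BP2 it fell by 0.17, less than in siIGF2BP3. Further particular members were MVD (-0.25), LSS (-0.17) and DHCR7 (-0.28), enzymes of the pathway, and SREBF2 (-0.13), the transcription factor that induces it. Of the remaining called members, TM7SF2, a sterol reductase, changed by -0.29 and INSIG2, which retains the pathway's regulators in the endoplasmic reticulum, by -0.26. INSIG2 fell further in siIGF2BP1 (-0.53). TM7SF2 overlaps VPS51 on the same strand, so its reads are uncertain in that part. SOAT2, which esterifies cholesterol and is in no list, was among the 12 largest falls, at 14.5 and 13.3 against 8.5 and 7.46 CPM, and fell in siIGF2BP1 (-0.55) and siIGF2BP2 (-0.64) too. At 3 h 18 of the 28 were lower and at 6 h 13. Of all genes, 8.62% and 9.04% were lower at these hours, against 4.47% at 0 h. ERCC scaling left 2 lower at 0 h, MSMO1 among them. The median relative to all genes was -0.14 with either scaling, a value that scaling can hardly change. Leaving out 1 library at a time left 5 to 13, namely 5 and 7 without siControl replicates 1 and 2 and 6 and 7 without siIGF2BP3 replicates 1 and 2.

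The letters TCACNCCAC, a sterol response element, were found in 1 of 21 promoter windows of this list, against 1.07% of all windows. CCAAT, a common promoter element, was in 16 of the 21 (76.2%), against 37.3% of all and 35.2% of those of the genes called lower.

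Genes of the lysosome moved the same way. Of 25 measured lysosomal genes 10 fell and 1, the proton pump subunit ATP6V1A, rose. Autophagy genes counted 3 lower of 23. CTSA and CTSB, lysosomal proteases, were lower than in the 3 other groups, as were the sialidase NEU1 and the pump accessory subunit ATP6AP1. CTSA was 238 and 240 CPM in siControl, 255 and 266 CPM in siIGF2BP1, 232 and 226 CPM in siIGF2BP2 and 207 and 209 CPM in siIGF2BP3 (log2 -0.20 ± 0.031, adjusted p = 1.36e-05). SQSTM1, the cargo receptor p62 of autophagy, was 256 and 255 CPM in siControl and 213 and 216 CPM in siIGF2BP3 (log2 -0.25 ± 0.0346, adjusted p = 1.79e-06). In siIGF2BP1 it rose to 339 and 328 CPM and in siIGF2BP2 to 294 and 276 CPM, the opposite direction. OPTN, another autophagy receptor, had the largest change of the 2 lists together (-0.40), and fell in siIGF2BP2 as well (-0.26). At 3 h 18 and at 6 h 19 of the 48 were lower, where 8.62% and 9.04% of all genes were. With ERCC scaling OPTN alone of the 48 was lower. The median relative to all genes was -0.09 with either scaling, a value that scaling can hardly change. Without siControl replicate 2 and without siIGF2BP3 replicate 2, 8 and 7 were lower.

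Metallothioneins are small proteins that bind zinc and copper, and all 5 that passed the filter fell in siIGF2BP3. MT2A was 24.3 and 24.6 CPM in siControl and 15.1 in both siIGF2BP3 libraries (log2 -0.70 ± 0.0732, adjusted p = 8.77e-09). MT1E was 13.6 and 13.1 CPM in siControl, 13.1 and 14.9 in siIGF2BP1, 18.9 and 18.6 in siIGF2BP2 and 8.73 and 8.94 in siIGF2BP3 (log2 -0.60 ± 0.091, adjusted p = 1.12e-05). MT1G was 15.1 and 12.5 CPM in siControl, 11.9 and 14.0 in siIGF2BP1, 22.9 and 21.2 in siIGF2BP2 and 8.81 and 8.53 in siIGF2BP3 (log2 -0.67 ± 0.105, adjusted p = 1.95e-05). The siIGF2BP2 libraries stood highest and the siIGF2BP3 libraries lowest for both MT1E and MT1G, which rose in siIGF2BP2 by 0.49 and 0.68. MT2A also rose in siIGF2BP2 (0.24) but fell in siIGF2BP1 (-0.51), and was not particular. MT1X (-0.95) and MT1F (-0.80) were under 3 CPM in siControl. The call of MT1X was lost without either siControl library or siIGF2BP3 replicate 1, that of MT1F without siControl replicate 2 or either siIGF2BP3 library, and both were lost with ERCC scaling, whereas MT2A, MT1E and MT1G kept theirs. These genes are near-identical copies of one another, so how reads were split among them is uncertain. The zinc exporter SLC30A1 (log2 0.04, adjusted p = 0.849) and the metal sensor MTF1 (0.0083, adjusted p = 0.981) were not called.

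The core of the metal response element, TGCACNC or TGCGCNC on either strand, is common and was found at least once in 40.4% of all promoter windows, but 8 or more copies were found in 0.0204%. MT2A had 8 in its 300-base window, and the 200 bases before its start, which hold 6 of them, are shown because of this number, with each core in capitals.
MT2A (chr16:56608384-56608583, plus strand): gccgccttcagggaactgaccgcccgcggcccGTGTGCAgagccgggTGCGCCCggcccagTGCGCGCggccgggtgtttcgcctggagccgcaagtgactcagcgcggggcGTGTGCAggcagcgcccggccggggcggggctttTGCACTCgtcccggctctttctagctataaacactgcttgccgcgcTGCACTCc

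The copies shown begin at 168, 153, 139, 88, 54 and 8 bases before the start.

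Target genes of YAP and TEAD, a pair that links cell tension to transcription, counted 6 lower and 1 higher of 17 measured. ANKRD1, a classical target, was 20.8 and 17.4 CPM in siControl, 13.9 and 13.1 in siIGF2BP1, 28.1 and 30.1 in siIGF2BP2 and 9.68 and 11.3 in siIGF2BP3 (log2 -0.87 ± 0.111, adjusted p = 5.03e-07). Each pair of libraries was separate from the others, with siIGF2BP3 lowest and siIGF2BP2 highest (0.61). F3, the tissue factor that starts coagulation, fell by 0.47 on the log2 scale and was particular, while CCN1 (-0.68) and CCN2 (-0.32) were lower without being particular. AXL, a receptor tyrosine kinase, was at 2.74 and 2.41 CPM against 1.31 and 0.797 CPM, and its change of -1.25 ± 0.244 (adjusted p = 0.000423) rests on few reads. The list had 6 members lower at 3 h and 6 at 6 h, where 8.62% and 9.04% of all genes were lower. CCN1 lost its call without siControl replicate 1, and F3 without siControl replicate 2 or siIGF2BP3 replicate 1 and with ERCC scaling, which left 3 of the 17 lower. Without siControl replicate 1, 4 were lower.

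Of 22 measured genes of the NF-kB response 8 fell and 1 rose, with a median of -0.27. Among them the ubiquitin-editing inhibitor TNFAIP3 went from 61.6 and 60 to 44.8 and 46.3 CPM (log2 -0.42 ± 0.0709, adjusted p = 6.24e-05), with 61.5 CPM or more in the siIGF2BP1 and siIGF2BP2 libraries. The cytokines IL32 (-0.30) and CSF1 (-0.69) were likewise particular, CSF1 at 8.13 and 7.13 against 5.12 and 4.28 CPM. The inhibitor NFKBIA, itself a direct target, was at 98.9 and 101 against 99.7 and 92.8 CPM (adjusted p = 0.718). RELB (-0.64), CD83 (-1.20) and TNFAIP2 (1.16), the member that rose, were under 6 CPM, and each lost its call without siControl replicate 2 or siIGF2BP3 replicate 2. RELB and CD83 also lost theirs without siIGF2BP3 replicate 1, and RELB and TNFAIP2 with ERCC scaling. TNFAIP2 further lost its call without siControl replicate 1, without any 1 siIGF2BP1 or siIGF2BP2 library, and without the filter on low CPM. With DESeq2 6 of the 22 were lower and 0 higher. The kappaB site, at which these factors bind, was in 12 of 19 promoter windows of the list (63.2%) against 6.55% of all, in 4 of 7 of called members and 8 of 12 of the others. CSF1 lost its call without siControl replicate 1 or siIGF2BP3 replicate 2. At 3 h 4 members were lower and at 6 h 6, where 8.62% and 9.04% of all genes were. With ERCC scaling 4 were lower, and 5 were without any 1 of siControl replicate 1, siControl replicate 2 and siIGF2BP3 replicate 1, and 4 without siIGF2BP3 replicate 2.

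Further particular genes on the lower side lay outside these lists. The water and glycerol channel AQP3 was 6.14 and 6.69 CPM in siControl and 3.69 and 3.21 CPM in siIGF2BP3 (log2 -0.89 ± 0.151, adjusted p = 6.62e-05), against 5.53 CPM or more in each of the other 4. TNFRSF12A, the receptor of the cytokine TWEAK, was 20.3 CPM in both siControl libraries and 14.0 and 13.4 CPM in siIGF2BP3 (log2 -0.56 ± 0.0967, adjusted p = 7.22e-05). It was 20.3 CPM or more in the other 4 libraries, so the groups did not overlap, though the gene overlaps CLDN6 on the opposite strand. GLIPR1, a secreted CAP family protein, changed by -0.59, the cytokine IL18 by -0.61 and the secretory GTPase RAB3B by -0.54, all at under 10 CPM. IL18 and RAB3B lost their calls without siControl replicate 1 or siIGF2BP3 replicate 1. Among immediate early genes 4 of 20 fell, and 1 did without siControl replicate 1 and with ERCC scaling. JUN, a subunit of AP-1, was 71.4 and 63.9 CPM in siControl and 52.4 and 52.8 CPM in siIGF2BP3 (log2 -0.36), while in siIGF2BP1 it rose to 84.8 and 81.6 CPM. Its call was lost without siControl replicate 1 and with ERCC scaling. KLF6 showed the same pattern, at -0.33 and 0.25, and was lost with ERCC scaling. EGR1 (-0.91) fell in siIGF2BP1 (-0.73) and siIGF2BP2 (-0.67) too, its siControl libraries were at 13.8 and 10.3 CPM, and its call was lost without siControl replicate 1. Of 10 measured genes of hepatic progenitors 5 fell, and none rose by edgeR, DESeq2 or an unadjusted p under 0.05 (0 in each). The list of 19 oncofetal and progenitor genes that holds these 5 counted 3 falls without siControl replicate 1 or siIGF2BP3 replicate 1 and 2 with ERCC scaling. The keratin KRT19 among them was 132 and 122 CPM in siControl and 90.0 and 94.0 CPM in siIGF2BP3 (log2 -0.47 ± 0.0448, adjusted p = 1.12e-09) and was particular. Only 2 of the 10 progenitor genes were particular. In siIGF2BP1 5 of the 10 fell and 1 rose, with a median of -0.16 against -0.195 in siIGF2BP3. In siIGF2BP2 3 fell and 1 rose, with a median of -0.0783. Of all genes, 6.5% and 5.47% were lower in these 2 knockdowns.

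On the higher side the genes of cell division stood out. Of 59 measured genes of mitosis 31 rose and none fell (0 at an unadjusted p under 0.05 in edgeR and 0 with DESeq2), with a list median of 0.17. CCNB1, the cyclin of mitotic entry, was 158 and 159 CPM in siControl and 199 and 226 CPM in siIGF2BP3 (log2 0.42 ± 0.0512, adjusted p = 1.98e-07). The Cdk1 subunit CKS2 went from 62.3 and 65.2 to 82.2 and 81.5 CPM (0.36), the survivin gene BIRC5 from 147 in both libraries to 189 and 185 CPM (0.34), and the anaphase activator CDC20 from 78.7 and 82.0 to 95.3 and 98.0 CPM (0.265). The groups did not overlap for any of these 4, which were already called on the same libraries, so this is no separate support. Not all regulators were called: the kinase AURKA was 164 CPM in both siControl libraries and 175 and 183 CPM in siIGF2BP3 (log2 0.13, adjusted p = 0.138). In bulk RNA a larger share of cells in mitosis and more of these transcripts per cell cannot be told apart. ERCC scaling left 24 rises, and leaving out 1 library at a time left 18 to 31, the 18 without siIGF2BP3 replicate 2.

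Mitosis genes rose in the other knockdowns too, each set against the same siControl libraries. In siIGF2BP1 12 members (of 59) rose with a median of 0.06, where 9.43% of all genes were called higher, and in siIGF2BP2 15 rose with a median of 0.11, where 6.65% were. In these knockdowns CCNB1 changed by 0.29 and 0.31, CKS2 by 0.28 and 0.20 and BIRC5 by 0.25 and 0.25. The siIGF2BP3 libraries were higher than siIGF2BP1 in 17 members and higher than siIGF2BP2 in 6. In these contrasts 6% and 4.28% of all genes were higher. They were lower than siIGF2BP2 in 1 member. Of the 59, 3 were particular to siIGF2BP3: TOP2A, MKI67 and NUSAP1. TOP2A, which untangles DNA, was 615 and 625 CPM in siControl, 627 and 618 in siIGF2BP1, 654 and 668 in siIGF2BP2 and 712 and 755 in siIGF2BP3 (log2 0.24 ± 0.0356, adjusted p = 6.69e-06). MKI67, the proliferation antigen and a described IGF2BP client, was 632 and 642 CPM in siControl and 774 and 777 CPM in siIGF2BP3 (0.28 ± 0.0293, adjusted p = 6.07e-09), and rose in siIGF2BP2 by 0.18. NUSAP1, a spindle microtubule protein, rose from 12.9 and 14.1 to 16.4 and 16.7 CPM (0.29), a call lost without any 1 of the 4 libraries and with ERCC scaling. Its locus overlaps OIP5 and OIP5-AS1. Of 50 genes of G1/S and DNA replication 15 rose and none fell (1 at an unadjusted p under 0.05 in edgeR and 0 with DESeq2), with medians of 0.122, 0.0064 and 0.0512 in siIGF2BP3, siIGF2BP1 and siIGF2BP2. The helicase subunits MCM2 (0.20) and MCM4 (0.14) were particular, and MCM3 went from 430 and 448 to 525 and 522 CPM (0.25). ERCC scaling left 3 rises, leaving out siControl replicate 1 left 4 and leaving out siIGF2BP3 replicate 2 left 6. The mitosis list counted 30 rises at 3 h and 33 at 6 h, the replication list 7 and 21. Of all genes, 7.4% and 9.44% were higher at these hours, against 4.93% at 0 h.

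The cell cycle homology region, TTTGAA on either strand, is known as the promoter element of genes expressed in G2 and mitosis. It was found in 38 of 50 mitosis promoters (76%), against 9.01% of all windows and 15.8% of those of the genes called higher. Members that rose held it in 78.6% of windows and members that were not called in 72.7%. The E2F letters TTTCGCGC, TTTGGCGC or TTTCCCGC were in 21 of 41 replication promoters (51.2%), against 4.71% of all. They were in 5 of 11 windows of replication members that rose (45.5%) and in 16 of 30 of those not called (53.3%). A match began 29 bases before the start in CKS2, CCNB2, PLK1 and MKI67. Of these, CKS2 and CCNB2 are shown as examples, 200 bases each up to the start, with TTTGAA or its reverse complement TTCAAA in capitals.
CKS2 (chr9:89310995-89311194, plus strand): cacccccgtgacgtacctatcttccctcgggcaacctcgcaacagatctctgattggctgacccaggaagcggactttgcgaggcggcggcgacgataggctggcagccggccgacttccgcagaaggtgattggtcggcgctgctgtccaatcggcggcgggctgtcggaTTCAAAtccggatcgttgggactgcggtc
CCNB2 (chr15:59104946-59105145, plus strand): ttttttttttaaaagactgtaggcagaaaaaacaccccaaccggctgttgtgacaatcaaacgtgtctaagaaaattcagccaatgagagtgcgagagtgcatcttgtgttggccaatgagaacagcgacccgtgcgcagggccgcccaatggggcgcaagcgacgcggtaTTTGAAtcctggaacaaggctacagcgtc

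CCNB2, the second mitotic B-type cyclin, was 65.5 and 63.4 CPM in siControl and 75.1 and 76.1 CPM in siIGF2BP3 (log2 0.23, adjusted p = 0.00142), and rose in siIGF2BP1 (0.17) and siIGF2BP2 (0.20).

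**Figure D3:**
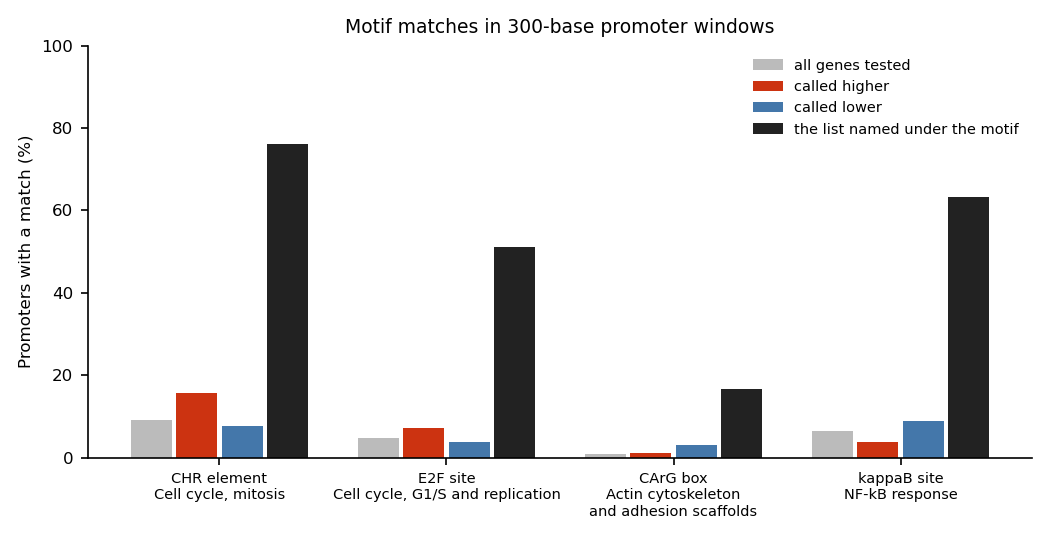
Share of 300-base RefSeq promoter windows with at least 1 match (y axis, percent from 0) for 4 motifs, in all tested genes, the genes called higher, the genes called lower and the list named under each motif. The CHR element, TTTGAA, is in 76% of mitosis promoters and the CArG box in 16.7% of those of the actin list, against 9.01% and 0.919% of all windows.

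HOXD1, a homeobox transcription factor, had the largest difference from its nearest other group (log2 0.393) of the particular higher genes of at least 5 CPM. It was 47.9 and 48.4 CPM in siControl, 36.7 and 40.9 in siIGF2BP1, 39.3 and 42.2 in siIGF2BP2 and 65.4 and 60.9 in siIGF2BP3 (log2 0.39 ± 0.0724, adjusted p = 0.000204; chr2:176188668-176190907, plus strand). It was lower in the other knockdowns than in siControl, at -0.32 and -0.24, and at 3 h and 6 h the rise was 0.75 and 0.47. HAGLR, a long noncoding gene, overlaps it on the opposite strand. The polarity scaffold MPP7 rose from 25.6 and 27.2 to 37.4 and 36.2 CPM (0.48), with 31.8 CPM or less in the siIGF2BP1 and siIGF2BP2 libraries. The adhesion docking protein NEDD9 rose by 0.31, the heme synthesis enzyme CPOX by 0.35, the sodium channel SCN1A by 0.345, the lipid transfer protein PDZD8 by 0.23, the recombination factor PSMC3IP by 0.23 and DEPDC1, a gene of dividing cells, by 0.26. DDX12B (0.43) has near-identical copies and is uncertain. The calls of SCN1A, DEPDC1 and PSMC3IP were lost without siControl replicate 2 or siIGF2BP3 replicate 2, that of NEDD9 without siControl replicate 2, and that of SCN1A also without siIGF2BP3 replicate 1.

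The 12 genes with the largest rise in siIGF2BP3 were also called higher in siIGF2BP1 and in siIGF2BP2, where 9.43% and 6.65% of all genes were. These 12 were picked on the siControl libraries that all 3 comparisons use, so a low siControl value raises all 3 changes together and the count is no independent check. CFDP1, a chromatin factor, was 25 and 26.8 CPM in siControl and 68.2 and 67.7 CPM in siIGF2BP3 (1.39), with 66.5 to 71.9 CPM in the other 4. VPS4B, an ATPase of membrane scission, changed by 0.67, 0.735 and 0.805 in siIGF2BP3, siIGF2BP1 and siIGF2BP2, and NAA50, an acetyltransferase, by 0.63, 0.60 and 0.33. GNPNAT1, a hexosamine enzyme, was the 1 of the 12 that met the rule for particular genes. It stood at 53.6 and 53.2 CPM in siControl and 87.9 and 91.1 CPM in siIGF2BP3 (0.745), and rose by 0.60 and 0.59 in the others. Of the 12 largest falls 4 were called lower in both other knockdowns and 4, IGF2BP3, AKAP12, ANKRD1 and CSF1, were particular. IGFBP1, a secreted IGF-binding protein, fell by 0.86 and fell likewise in siIGF2BP1 (-0.91), but was not called in siIGF2BP2 (-0.22).

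No writer of N7-methylguanosine (0 of 6) or N6-methyladenosine (0 of 11) was called by edgeR, and 0 reached an unadjusted p under 0.05 or a DESeq2 call. Among the readers of these marks FMR1 (0.49), HNRNPC (0.10) and RBMX (0.12) rose and YBX3 (-0.12) fell, of 14. FMR1 kept its call in every setting tried, while the calls of HNRNPC, RBMX and YBX3 were lost with ERCC scaling, without siControl replicate 2 and without siIGF2BP3 replicate 2, and those of HNRNPC and YBX3 also without siControl replicate 1. That of HNRNPC was lost without a filter on low CPM as well. RNA decay genes counted 9 higher and 2 lower of 55, among them the exonuclease XRN1, from 24.9 and 24.7 to 30.5 and 33.1 CPM (0.36), and the decapping helicase DDX6 (0.25). XRN1 and DDX6 rose in siIGF2BP1 too (0.43 and 0.20). The counts of this list were 2 higher without siControl replicate 1, 5 without siControl replicate 2, 5 without siIGF2BP3 replicate 1 and 3 both without siIGF2BP3 replicate 2 and with ERCC scaling, with 0 lower in each. The poly(A)-binding protein PABPC4 was 166 and 171 CPM in siControl and 246 and 249 CPM in siIGF2BP3 (log2 0.55 ± 0.0318, adjusted p = 7.37e-16), with 0.45 and 0.64 in the other knockdowns. Of 25 measured mRNAs described as clients of the family 6 rose and 4 fell, with a median of -0.02. They were 3 and 1 without siControl replicate 1, 4 and 0 without siControl replicate 2, 2 and 0 without siIGF2BP3 replicate 1, 6 and 1 without siIGF2BP3 replicate 2, and 3 and 0 with ERCC scaling. MYC, the best known of them, was 142 and 143 against 145 and 145 CPM (adjusted p = 0.865). IGF2, which gave the family its name, rose by 0.15 here and by 0.46 in siIGF2BP1, and its call here was lost with DESeq2, with ERCC scaling and without siControl replicate 1 or siIGF2BP3 replicate 1.

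Other groups held few calls or calls in several knockdowns. Of 82 cytosolic ribosomal protein genes 1 rose, of 35 proteasome subunits none was called by edgeR or DESeq2 (2 lower at an unadjusted p under 0.05), and of 45 interferon response genes 1 fell. The ribosomal call was lost without siControl replicate 1, and the interferon call without either siControl library or siIGF2BP3 replicate 2 and with ERCC scaling. Splicing factors counted 8 rises of 62, with 2 and 4 left without siControl replicates 1 and 2, 5 and 3 without siIGF2BP3 replicates 1 and 2, and 0 with ERCC scaling. Apolipoprotein and lipid transport genes counted 6 falls of 23, with 3 left without siControl replicate 1 or siIGF2BP3 replicate 2 and 0 with ERCC scaling. Its median relative to all genes, which scaling can hardly change, was -0.0741 with TMM and -0.0763 with ERCC scaling. For that list the medians against siControl were -0.07 in siIGF2BP3, 0.12 in siIGF2BP1 and -0.07 in siIGF2BP2. Chaperones of the endoplasmic reticulum counted 7 falls of 16 here and 12 of 16 in siIGF2BP2, where 5.47% of all genes were lower. The whole list of the unfolded protein response, 33 genes, counted 9 falls here, 3 without siControl replicate 1, 7 without siControl replicate 2, 2 without siIGF2BP3 replicate 1, 6 without siIGF2BP3 replicate 2 and 0 with ERCC scaling. Of 41 glycolysis and hypoxia genes 10 fell (4 without siControl replicate 1 or siIGF2BP3 replicate 2, 3 with ERCC scaling), SLC2A3, a glucose transporter, by 0.47, and it fell in siIGF2BP1 (-0.81) and siIGF2BP2 (-0.40) as well. PGK1, PGAM1 and EPAS1 were the 3 particular members, at -0.15, -0.13 and -0.13.

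**Figure D4:**
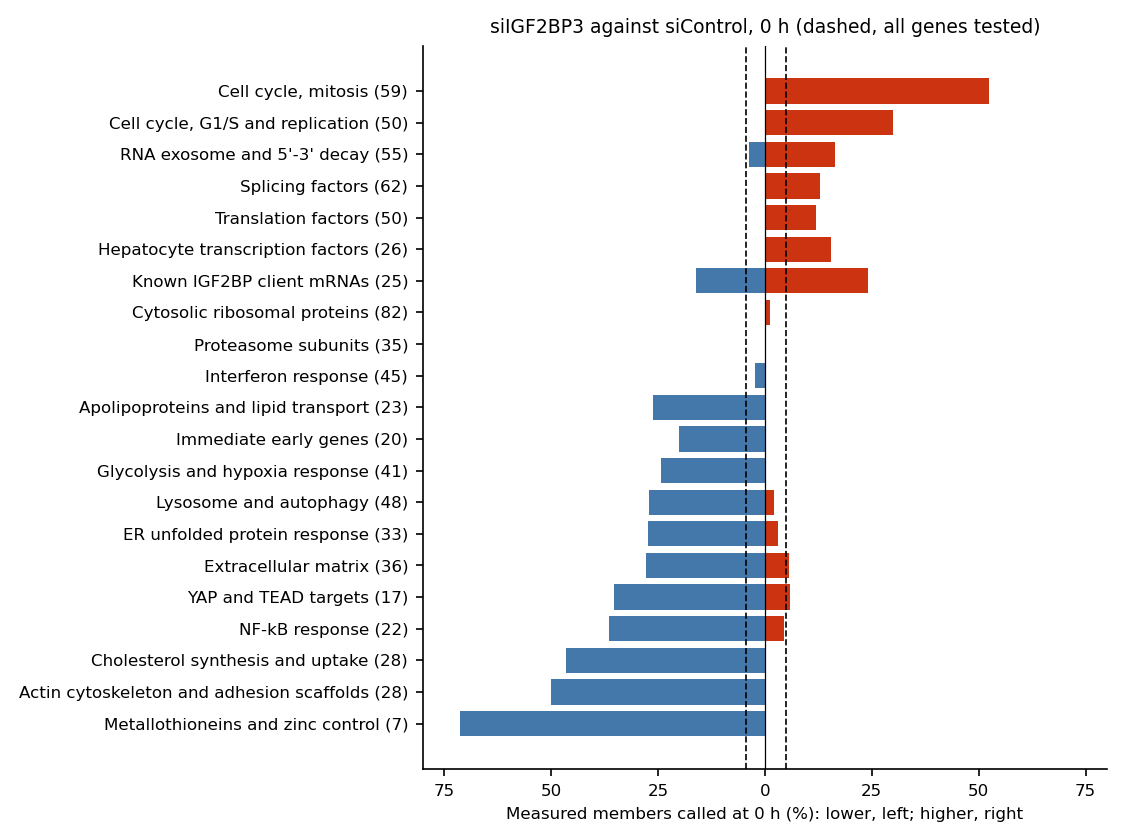
Percent of the measured members of 21 gene lists (number measured in brackets) called higher (right) or lower (left) in siIGF2BP3 against siControl at 0 h, with dashed lines at the share of all genes tested, 4.93% and 4.47%. Mitosis genes extend furthest to the right (31 of 59), and metallothioneins, actin and cholesterol genes furthest to the left.

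The libraries harvested later give the same comparison in other plates, which the methods describe as re-seeded from the transfected cells, so they are not independent transfections. With actinomycin D present for 3 h, 972 genes were higher (7.4%) and 1132 lower (8.62%) in siIGF2BP3 than in siControl of the same hour, and after 6 h 1240 (9.44%) and 1188 (9.04%). Of the 587 genes lower at 0 h 572 (97.4%) kept their sign at 3 h and 576 (98.1%) at 6 h, where 49.7% and 50.2% of all genes had that sign. Of the 647 higher genes 626 (96.8%) and 634 (98%) did. None was called in the opposite direction at either hour. Of the particular genes, 138 of the 154 lower genes were called again at 3 h and 131 at 6 h, against 23 and 29 of the 38 higher genes. By the same rule of 3 contrasts, 230 genes (1.75%) were particular on the lower side at 3 h and 237 (1.8%) at 6 h, and 87 (0.662%) and 128 (0.974%) on the higher side. Of the 154 genes, 90 met the rule at all 3 times, among them AKAP12, TAGLN, FLNA, MSMO1, SQSTM1, MT1E and MT1G. Of the 38, 8 did: MCM2, MBNL3, COBLL1, HOXD1, TOP2A, NUSAP1, GLUD1 and POLR2A.

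**Figure D5:**
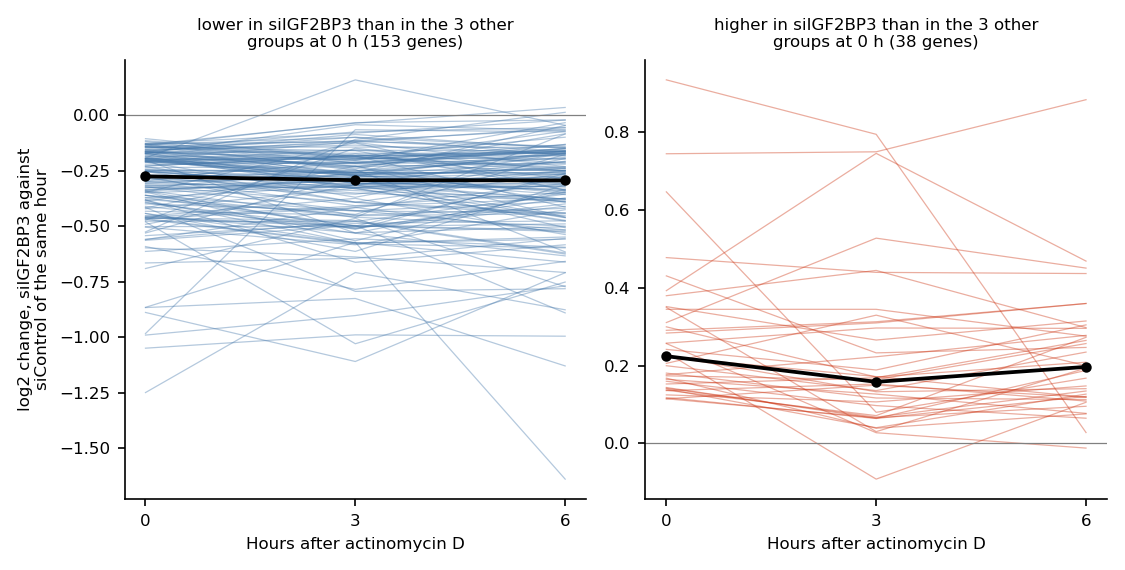
The log2 change in siIGF2BP3 against siControl of the same hour (y axis) at 0, 3 and 6 h after actinomycin D for the particular genes of 0 h, with a thin line for each gene, the median in black, and different y scales in the 2 panels. IGF2BP3 is left out of the lower group. The medians of all 154 lower genes are -0.28, -0.30 and -0.30, and those of the 38 higher genes 0.225, 0.159 and 0.197.

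Called genes differed in level and composition from the rest, given here as a description. Their median level was 65.0 CPM for the higher and 56.2 CPM for the lower genes, against 18.4 CPM for genes not called, and more abundant genes are easier to call. Median GC content of the exons was 45.6% for the higher, 49.2% for the lower and 48.5% for the uncalled genes, and 51% for the particular lower genes. From 3 h to 6 h of actinomycin D in the siControl libraries of those hours, which took no part in the 0 h contrast, the genes lower at 0 h had a median change of 0.14 on the log2 scale relative to the library, the particular lower genes 0.13, the higher genes -0.02 and the uncalled genes -0.01. A positive value marks a transcript that was lost more slowly than the average one in control cells.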

How the data were processed

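Per the labels and the study's methods, the authors trimmed single-end mRNA reads with Trimmomatic 0.39, aligned them to hg38 with HISAT2 2.1.0 and counted them per GENCODE gene with HTSeq. The deposited values are raw counts per gene and library. The library kit was a stranded one and the alignment was run with a strand option. The settings of the counting for strand and overlapping genes are not given in the sources used here. The rows that name no gene held 16.192% to 16.779% of the reads in the 4 libraries compared and were left out. Depth, 39441282 to 74252042 gene reads, limits the precision of genes at a few CPM.

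All 24 libraries were fitted together in edgeR 4.0.16 (R 4.3.3, limma 3.58.1) with 12 group means, TMM scaling and a filter that kept the 13136 genes reaching 1 CPM in 2 or more libraries, with 12 residual degrees of freedom. Quasi-likelihood tests were two-sided with Benjamini-Hochberg adjustment over all genes, called under 0.05, and adjusted p-values in the text come from them. Each SE after ± is the absolute log2 change divided by the square root of the test's F statistic. It thus rests on a spread estimated over all 24 libraries, not on the 2 libraries of a group alone. Gene lists were described by counts and medians, with no set test. The scripts were tested on simulated data.

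The members and the 52 gene lists were chosen with earlier results of these data known. Named genes were the IGF2BP family, the 12 largest rises and falls at a mean of at least 5 CPM with no overlap between the groups, the 10 particular genes on each side ranked by the smallest of their 3 differences, and up to 4 called members of each list with the largest change; the remaining genes named were chosen after their values were seen. Gene positions are those of the GENCODE annotation for hg38. Alternatives were other scalings, filters, sample sets, DESeq2 1.42.0, a replicate block, and leaving out single libraries. Some items are not reported here.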

Additional observations from a re-analysis of the deposited data

Results flagged for a closer look

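The difference between knockdowns was tested for every gene, and 38 genes were higher and 154 lower in siIGF2BP3 than in siControl, siIGF2BP1 and siIGF2BP2 at 0 h. For the genes named from these sets the values that follow are log2 differences from the nearest of the 3 other groups, which is the smallest of 3 tested contrasts. On the lower side, beside the target IGF2BP3 (-1.47), they were -0.899 for the kinase scaffold AKAP12, -0.779 for the channel AQP3, -0.664 for the cytokine CSF1, -0.614 for IL18 and -0.598 for the metallothionein MT1E. GLIPR1 followed at -0.592, MT1G and the TWEAK receptor TNFRSF12A at -0.564 each, and RAB3B at -0.543. On the higher side HOXD1 had 0.393, SCN1A 0.336, NUSAP1 0.291, DEPDC1 0.257, DDX12B 0.248, MPP7 0.235, PDZD8 0.226, NEDD9 0.216, PSMC3IP 0.204 and CPOX 0.195. These genes were ranked on the same values, so the sizes are descriptions of the most extreme genes.

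There were 92 genes called in one direction in siIGF2BP3 and in the other in siIGF2BP1 or siIGF2BP2, with the difference between the knockdowns called as well. Of these, 35 were higher and 57 lower in siIGF2BP3, with the siRNA targets IGF2BP1 and IGF2BP3 among them. SQSTM1, JUN, KLF6, ITGA6 and THBS1 were among the lower ones, and HOXD1 among the higher ones.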

How the results depend on the processing

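The fall of IGF2BP3 kept its direction and its call under the 8 other settings and without each library, at -1.41 to -1.51 on the log2 scale. With ERCC scaling the genes called numbered 471 (388 higher and 83 lower), and those particular to siIGF2BP3 numbered 23 (4 higher and 19 lower). In the 8 libraries of 0 h alone the particular genes numbered 316, with 105 higher, and with DESeq2 61 were higher. Leaving out 1 library at a time left 586 to 1203 called genes, 311 to 627 of them higher and 275 to 577 lower. It left 94 to 143 particular genes, 11 to 23 of them higher and 83 to 121 lower. The lowest counts of called genes came without siControl replicate 1 and those of particular genes without siIGF2BP3 replicate 2. In these fits the lone library of a group is assumed to vary like the other groups. Of 187 called genes named by rule, 82 lost their call with ERCC scaling, 63 and 48 without siControl replicates 1 and 2, 49 and 56 without siIGF2BP3 replicates 1 and 2, and 13 without the filter. No named gene changed direction. The cause was not tested. With 2 libraries a group and at these depths, a gene at a few CPM has a wide error, as MT1X shows (-0.95 ± 0.28 against -0.60 ± 0.091 for MT1E).

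The groups share replicate numbers, but the labels do not say that a number marks a shared batch. Deviations of same-numbered libraries correlated with r of -0.02 between siControl and siIGF2BP3, and between -0.02 and 0.04 over the 6 pairs of conditions at 0 h, across genes. With the replicate block 1316 genes were called (692 higher and 624 lower), 210 were particular, and none of the 187 named calls was lost.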
